A study of Mus musculus with 4 samples.

Results

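The most densely tagged autosomal peaks of mouse sperm that had no counterpart in pancreatic islets were examined in methylated DNA immunoprecipitation sequencing (MeDIP-seq), in which an antibody against 5-methylcytosine pulls down sheared genomic DNA. Density was taken as tags (sequenced reads) per kb of peak. A control sperm peak on chromosomes 1 to 19 was a member if it ranked in the top 1% of its list by density, overlapped a T2D sperm peak in the top 1% of that list, and had no peak of either islet library within 1000 bp. Of the 177342 peaks of the control sperm list, 184 were members. They were thus chosen on their density in both sperm libraries and on the islet calls, and values of these quantities are given below as a description.

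All animals were ICR mice, an outbred strain. T2D founders were males kept after weaning on a diet with 33% of energy as fat, injected with low-dose streptozotocin (STZ, a toxin of insulin-producing beta cells) at 12 weeks, and accepted at a fasting glucose of 7 to 11 mM. Control founders were brothers on a control diet, with no injection described. Sperm came from 6 control and 6 T2D founders at 16 weeks, and islets from the young of these fathers, 6 for each condition, labelled as 3 weeks of age. Each group was 1 library, and the labels do not say how animals were combined, so no difference between conditions has a replicate check and none was tested. The model combines diet and toxin, whose parts cannot be told apart. The deposited lists held 177342 and 178584 peaks in control and T2D sperm and 167712 and 167325 in control and T2D islets. The sperm libraries had 31053754 and 31833988 unique tags, per the file headers, while the depth of the islet libraries is unknown. Peaks hold no expression markers, so the tissue labels were checked by overlap alone. A T2D sperm partner was found for 69.9% of control sperm peaks, against 55.8% and 55.7% with a partner in control and T2D islets.

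In mammals DNA methylation sits mainly on cytosines of CpG dinucleotides. The pattern of sperm is laid down in the male germ line by de novo methyltransferases and is largely, though not wholly, erased in the early embryo, so that somatic cells such as those of the islet carry a pattern built anew. MeDIP recovers a fragment better the more methylated cytosines it holds. Tags in a peak therefore follow the number of methylated cytosines and the number of copies of the sequence in the genome, and without an input library these cannot be told apart. Absence from islets means that no peak was called there. The smallest peak called in either islet library held 18 tags.

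The path from the list to the members showed where peaks were lost. The control sperm density threshold was 124.7 tags per kb and left 1774 peaks, 1726 of them autosomal. Of these, 1604 overlapped some T2D sperm peak and 679 overlapped one above the T2D threshold of 121.5 tags per kb. These 679 dense pairs divided into 454 that overlapped an islet peak, 41 with an islet peak nearby but not overlapping, and the 184 members. Members made up 27.1% of the dense pairs (95% Wilson interval 23.9% to 30.6%). Among all 122887 autosomal control sperm peaks with a T2D sperm partner, 18.9% had no islet peak within 1000 bp. The islet condition was part of the choice of members, so this difference carries no test. The same rule with the tissues exchanged gave 40 of 499 dense islet pairs absent from sperm, or 8.02% (5.94% to 10.7%). The share over all matched islet peaks is not given here and the islet depth is unknown. The islet share therefore has no baseline and is not a comparison of the tissues.

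Absence from islets did not change in 1 direction with density in sperm. In the least dense 10% of control sperm peaks with a T2D partner, 37.6% lacked an islet peak. The share fell through the list to 6.35% of peaks ranked between 2% and 5%, was 6.91% between 1% and 2%, and was 5.50% (4.12% to 7.30%) of those between 0.5% and 1%. It then rose to 9.09% between 0.25% and 0.5%, 27.0% (21.8% to 33.0%) between 0.1% and 0.25%, and 53.5% (45.7% to 61.0%), or 85 of 159 peaks, in the densest 0.1%. Median width along the same ranks went from 977 bp in the least dense group through 1113 bp in the group between 20% and 30% to 669 bp in the densest. Of the 10 densest pairs 7 were members, and of the densest 100 pairs 48 were.

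**Figure D1:**
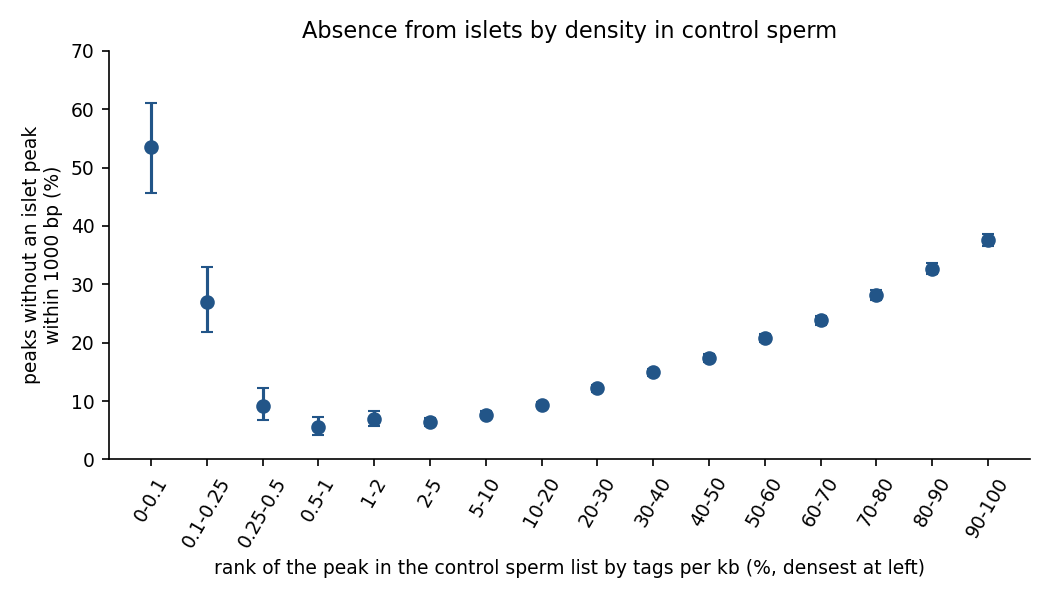
Share of autosomal control sperm peaks with a T2D sperm partner that had no islet peak within 1000 bp (y axis, %), by rank of the peak in tags per kb (x axis, %, densest at left); bars are 95% Wilson intervals. The share is lowest, at 5.50%, between ranks 0.5% and 1% and reaches 53.5% in the densest 0.1%.

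The densest members were narrow regions that held many tags in both sperm libraries. First came chromosome 2 from 107887472 to 107888072, where the control peak held 482 tags (802 tags per kb) and the T2D peak 503. Measured from the control sperm peak, its nearest islet peaks lay 1033 bp away in the control and 1049 bp away in the T2D library. Both were just past the 1000 bp limit, and they held 76 and 70 tags. The T2D sperm peak began 481 bp earlier and ended 310 bp later than the control one, so it lay less than 1000 bp from these islet peaks. The second, on chromosome 3 from 14983336 to 14984181, held 608 and 605 tags, and its islet neighbours were 4046 bp and 4061 bp away. On chromosome 14, the region from 105387750 to 105388356 held 393 and 394 tags, with no islet peak for 16591 bp. Scaled to depth, the T2D to control ratio of tags was 1.02, 0.971 and 0.978 in these regions, with 95% intervals that included 1.

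The next members by density repeated this agreement in tags. Chromosome 2 from 138347765 to 138348366 held 375 and 382 tags. Chromosome 16 carried 2 such regions, from 71414454 to 71415107 with 365 and 352 tags and from 66523581 to 66524273 with 380 and 377 tags. The region on chromosome 6 from 10146891 to 10147398 held 271 and 268 tags within 508 bp. Those on chromosome 10 from 13326012 to 13326677 and on chromosome 15 from 4618063 to 4618639 held 323 and 336 tags and 258 and 279 tags. The last of the leading 10, on chromosome 13 from 120280603 to 120282391, was wider, at 1789 bp, and held 787 and 804 tags. Its enrichment over the caller's background was 5.51, against 11.44 to 17.79 in the others. Enrichment depends in part on the width of a peak and on tags nearby.

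Members were narrow, with a median width of 668 bp in control sperm (range 382 to 3391 bp) and 642.5 bp in T2D sperm (353 to 3977 bp). The median of the 495 dense pairs with an islet peak nearby was 1011 bp and 977 bp, and that of all matched peaks 1044 bp and 1045 bp. Of the members 57.6% were under 700 bp, against 21.2% of the dense pairs present in islets and 15.0% of all matched peaks. The median member spanned 2.40 fragment lengths in the control and 2.36 in T2D sperm. These use the lengths of 278 bp and 272 bp that the caller estimated for each library, per the file headers. The labels give fragments of about 250 bp with adapters, which is shorter than either estimate. Width enters the density, and a wider peak leaves more room for an islet peak nearby; the part of width in this difference was not tested. The narrowest members were chromosome 8 from 59223767 to 59224148 (382 bp, 112 and 130 tags), chromosome 17 from 36845050 to 36845437 (388 bp, 121 and 113 tags) and chromosome 11 from 21373635 to 21374034 (400 bp, 63 tags in each library). The second of these also lay far from any called islet peak, with the nearest 70161 bp away.

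**Figure D2:**
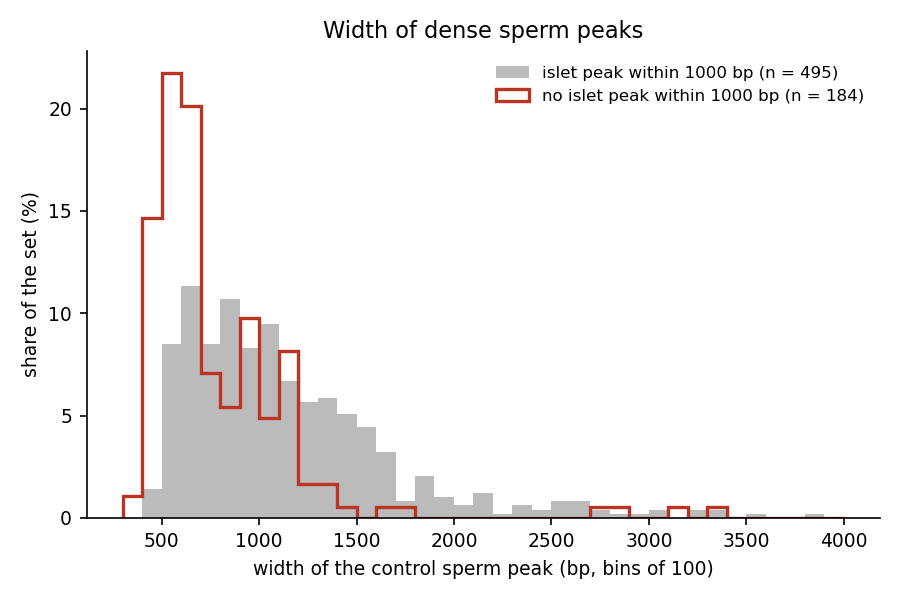
Width of the control sperm peak (x axis, bp, bins of 100) as a share of each set (y axis, %), for members (red line) and dense pairs with an islet peak within 1000 bp (grey). Medians are 668 bp and 1011 bp; 57.6% of members are under 700 bp.

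The tags of a member ranged from 59 to 865 in control sperm, with a median of 146.5, and from 62 to 993 in T2D sperm, with a median of 150. Dense pairs present in islets held a median of 166 tags in either library, so members had fewer tags in narrower peaks, at a median of 207 against 148 tags per kb in the control and 222 against 147 in T2D sperm. Enrichment over the caller's background, which rests on the same tags, had a median of 15.73 in control and 16.20 in T2D members, near the highest value of each list (18.08 and 18.38). Of the members, 138 (75%) had an enrichment of at least 14 in the control, against 17.0% of dense pairs present in islets and 0.778% of all matched peaks. That background came from the same library, with a regional window of 5000 bp and no input. Enrichment therefore also depends on the width of a peak and on tags nearby, and does not measure signal strength alone. On chromosome 12 from 59763998 to 59764553 it was 17.65 in control and 18.38 in T2D sperm, with 160 and 93 tags. The densest member, with 482 and 503 tags, had 13.95 and 13.69. The shares at 14 or more are thus not a measure of how strong the members were.

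A small subset of members had low enrichment over the caller's background, and most of its regions were broad. Since enrichment depends in part on width and on tags nearby, these traits are not independent. It was set apart after the values were seen, at an enrichment under 9, and held 7 members with enrichments of 3.24 to 6.56 in control and 3.47 to 6.57 in T2D sperm. Their widths ran from 798 to 3391 bp with a median of 2701 bp, and their tags from 135 to 865 with a median of 428. The other 177 members had enrichments of 9.35 or more and widths of at most 1694 bp. The narrower regions of the subset fell within those widths. The 3 widest members belonged to the subset. These were chromosome 8 from 46124615 to 46128005 (3391 bp, 634 and 593 tags), chromosome 13 from 120277259 to 120280382 (3124 bp, 865 and 993 tags) and chromosome 14 from 119308221 to 119311110 (2890 bp, 389 and 347 tags). The first of them lay 1080 bp and 1071 bp from a control and a T2D islet peak.

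The sperm libraries agreed closely in the tags of members. After scaling to unique tags, the T2D to control ratio had a median of 1.00 over the members and ran from 0.567 to 1.42. It was above 1 in 94 of 184 members (51.1%, interval 43.9% to 58.2%), 37.8% of dense pairs present in islets and 47.2% of all matched peaks. The ratio lay between 0.8 and 1.25 in 92.4% of members, 86.9% of dense pairs present in islets and 57.9% of all matched peaks. Only 2 members differed by 1.5-fold or more, both lower in T2D, or 1.09% (0.299% to 3.88%), where 16.9% of all matched autosomal sperm peaks did so in either direction. Dense pairs present in islets were close to the members here, with 8 of 495 past 1.5-fold, or 1.62%. By direction, 0 of 184 members were higher by 1.5-fold in T2D, which allows a share of up to 1.63%, and 2 were lower. The shares were 0.404% higher and 1.21% lower in dense pairs present in islets, and 7.63% and 9.24% in all matched peaks, which held a median of 56 tags in the control. A further set was the 15262 matched peaks whose tags, summed over both sperm libraries, lay in the range of the middle 50% of members. Of these, 13.5% differed by 1.5-fold or more. They were wider than members, at a median of 1814 bp in control sperm, and 0.891% were under 700 bp. The set is thus like the members in tags but not in width. The ratio of these peaks was above 1 in 44.3% and between 0.8 and 1.25 in 65.8%. Members had to be dense in both libraries, which sets a floor on tags per kb and not on the ratio of tags. The part of this choice in the agreement of tags was not tested, and no other test was made.

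**Figure D3:**
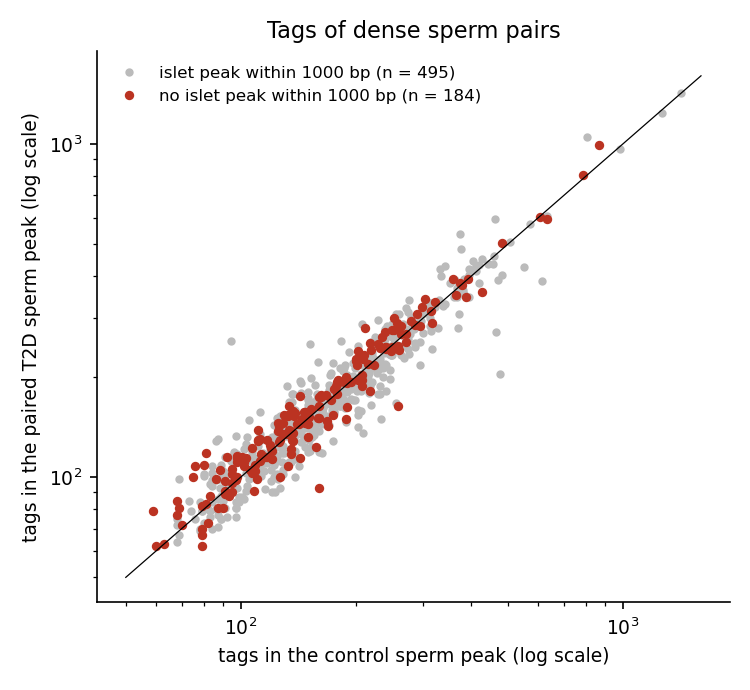
Tags in the control sperm peak (x axis) and in the paired T2D sperm peak (y axis), both on log scales and not scaled to depth, for 184 members (red) and 495 dense pairs with an islet peak within 1000 bp (grey); the line marks equal tags. Members follow the line from 59 to 865 control tags, and 2 lie clearly below it.

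In the 2 members past 1.5-fold the interval of the ratio excluded 1. Chromosome 12 from 59763998 to 59764553 held 160 control and 93 T2D tags, a scaled ratio of 0.567 (exact conditional 95% interval 0.434 to 0.737). Chromosome 17 from 33181302 to 33182286 held 258 and 163 tags, a ratio of 0.616 (0.503 to 0.753). Both kept their summit, which moved by 4 bp and 5 bp between libraries. The next lowest ratios were 0.764 on chromosome 7 from 3876676 to 3877808 (157 and 123 tags), 0.766 on chromosome 8 from 92447646 to 92448053 (79 and 62 tags) and 0.768 on chromosome 2 from 89356965 to 89357968 (127 and 100 tags). The intervals of the last pair included 1. Tags were counted over each library's own peak, and the T2D peak was narrower in each of these regions. Control and T2D widths were 1133 and 464 bp on chromosome 7 and 1004 and 475 bp on chromosome 2. In these the scaled ratio of tags per kb was above 1, at 1.87 and 1.62. It was below 1 in the others, at 0.599 on chromosome 12, 0.798 on chromosome 17 and 0.885 on chromosome 8.

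At the other end, chromosome 4 from 118524693 to 118525283 held 81 control and 118 T2D tags, a ratio of 1.42 (1.06 to 1.91). Chromosome 3 from 31370224 to 31370699 held 76 and 108 tags, a ratio of 1.39 (1.02 to 1.88). The intervals of the other members with the highest ratios included 1: chromosome 7 from 128568078 to 128568618 held 80 and 109 tags, chromosome 5 from 47020583 to 47021025 held 59 and 79, and chromosome 11 from 12047752 to 12048177 held 75 and 100. In all, the interval excluded 1 in 10 members (5.43%), 4 higher and 6 lower in T2D. It did so in 13.9% of dense pairs present in islets (69 of 495) and in 19.4% of all matched peaks. Among the matched peaks with as many tags, which were wider than members, the share was 30.4%. Such intervals compare 2 libraries and cover counting error only, and do not compare the conditions.

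Peak width agreed less well than tags. The standard deviation of the log2 T2D to control ratio over members was 0.18 for tags but 0.43 for width and 0.43 for tags per kb. In dense pairs present in islets it was 0.23 for tags, 0.30 for width and 0.28 for tags per kb. In all matched peaks the values were 0.44, 0.48 and 0.39. Width differed by 1.5-fold or more in 39 members (21.2%), a share near the 18.8% of all matched peaks, and in 5.66% of dense pairs present in islets. Across members, the log2 tags of the libraries had a Pearson correlation of 0.97 and the log2 widths of 0.72 (n = 184 regions). Regions of a library share its depth and are not replicates, and members were chosen on both values. The densest member shows the pattern, since its tags were 482 and 503 while its width went from 601 bp in control to 1392 bp in T2D sperm and its density from 802 to 361 tags per kb. Of the 10 densest members in the control, 6 were also among the 10 densest in T2D sperm, whereas by tags 9 of 10 were shared.

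Peak summits stayed in place where the ends moved. The summit of the paired peaks differed by a median of 8 bp, and by at most 20 bp in 75.5% of members, against a median of 16 bp in dense pairs present in islets and 29 bp in all matched peaks. Peaks with as many tags as members had a median of 31 bp, and were wider, with a median width of 1814 bp in control sperm. Only 2 members differed by over 100 bp, both of the subset with low enrichment. They were chromosome 8 from 46124615 to 46128005, by 1556 bp, and chromosome 19 from 57712457 to 57713506, by 125 bp. Both ends lay within 20 bp of each other in 49 members (26.6%), as on chromosome 3 from 14983336, where the T2D peak ran from 14983335 to 14984177. The share was 8.08% in dense pairs present in islets and 2.67% in all matched peaks. In a further 36 members (19.6%) 1 end stayed within 20 bp while the other moved by over 100 bp, with a median of 276 bp and a maximum of 511 bp. This share was near those of all matched peaks, 15.7%, and of dense pairs present in islets, 17.6%. The wider peak was the T2D one in 14 of these and the control one in 22, and their scaled tags had a median ratio of 1.00.

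**Figure D4:**
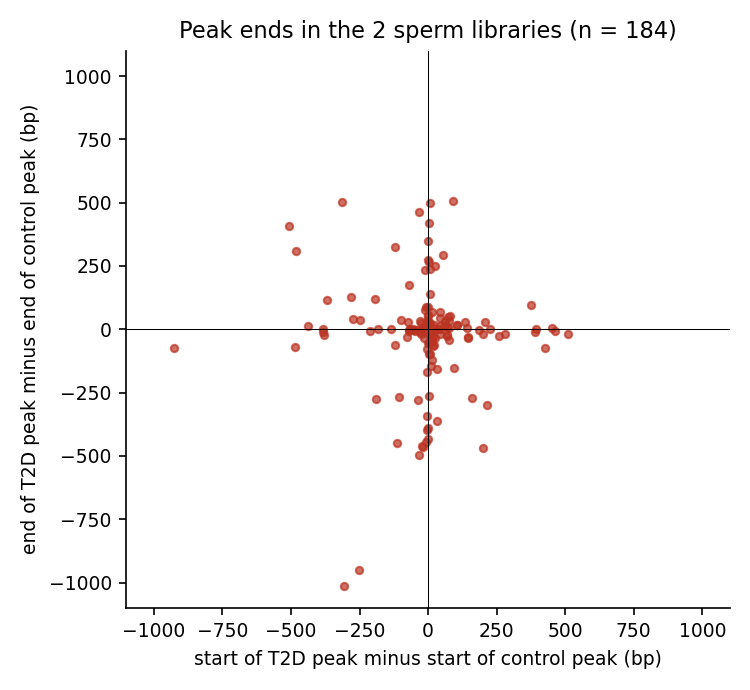
Start of the T2D sperm peak minus that of the control peak (x axis, bp) and the same for the end (y axis, bp) in 184 members. Points on an axis are peaks that share 1 end; 49 members have both ends within 20 bp, and 36 have 1 end within 20 bp and the other more than 100 bp apart.

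A total of 243 autosomal control sperm peaks in the top 1% were absent from islets. Besides the 184 members, 13 had no T2D sperm peak and 46 had one below the T2D threshold, with a median of 96.5 tags per kb. In these 46, chosen for their lower density in T2D, the T2D peak was wider in 42, with a median width ratio of 1.34, and tags had a median ratio of 0.882. One of them, on chromosome 3 from 92331186 to 92331635, held 89 and 80 tags in peaks of 450 bp and 1296 bp; it was named after its values were seen.

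Values on the 2 sides of each limit of the rule lay close together. Just inside the control density threshold were chromosome 7 from 12825577 to 12826593 (124.9 tags per kb, 127 and 129 tags), chromosome 13 from 68465144 to 68465870 (125.2 tags per kb, 91 and 97 tags) and the chromosome 2 region from 89356965 (126.5 tags per kb). Just outside were chromosome 6 from 121919459 to 121920189 (124.5 tags per kb), chromosome 7 from 112504846 to 112505448 (124.4) and chromosome 4 from 111539294 to 111539833 (124.1). On the T2D side, chromosome 7 from 15541288 to 15541813 was the closest to the threshold from below, with 121.4 tags per kb. For the islet distance, the members nearest to 1000 bp were the densest member at 1033 bp, chromosome 3 from 61840084 to 61840669 at 1053 bp and the chromosome 8 region from 46124615 at 1071 bp. The dense pairs just within it lay on chromosome 3 from 9950956 to 9951496 (986 bp, 136 and 145 tags), chromosome 13 from 17322586 to 17323191 (960 bp) and chromosome 2 from 118380567 to 118381311 (942 bp). The 1000 bp limit had to be met in both islet libraries, and 33 dense pairs were near a T2D islet peak only and 30 near a control islet peak only.

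Members lay in regions with few peaks. Within 100 kb of a member there was a median of 9 other control sperm peaks, against 20 around dense pairs present in islets and 19 around all matched sperm peaks absent from islets. No other control sperm peak lay within 10 kb of 46.7% of members, where this held for 17.2% and 18.5% of those sets. The islet lists were sparse around members too, with a median of 9 peaks within 100 kb in either library, against 19 around dense pairs present in islets and 17 around matched sperm peaks absent from islets. The distance to the nearest islet peak of either library had a median of 5170.5 bp and a maximum of 74247 bp. Taken in each library separately, the nearest peak was a median of 8005 bp away with 32 tags in control islets and 6087 bp away with 34 tags in T2D islets. These differences were not tested. The windows reach 100 kb to each side, so those of some neighbouring members overlap, in the groups named next and in others.

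Members were scattered over all 19 autosomes and seldom lay together. Chromosome 2 held the most, 25 members or 13.6% of them against 7.63% of autosomal control sperm peaks, and chromosome 19 the fewest, 3. Per 100 Mb between the first and last control sperm peak, members ranged from 3.41 on chromosome 6 to 13.99 on chromosome 2. Members as a share of dense pairs ranged from 16.7% on chromosome 6 (5 of 30) to 38.5% on chromosome 14 (10 of 26), on small counts. Chromosome 2 was also high in dense pairs present in islets, at 27.4 per 100 Mb. Of the members 7 (3.80%) began in the first 10 Mb of their chromosome, the centromere side in mouse, against 4.77% of all matched peaks.

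**Figure D5:**
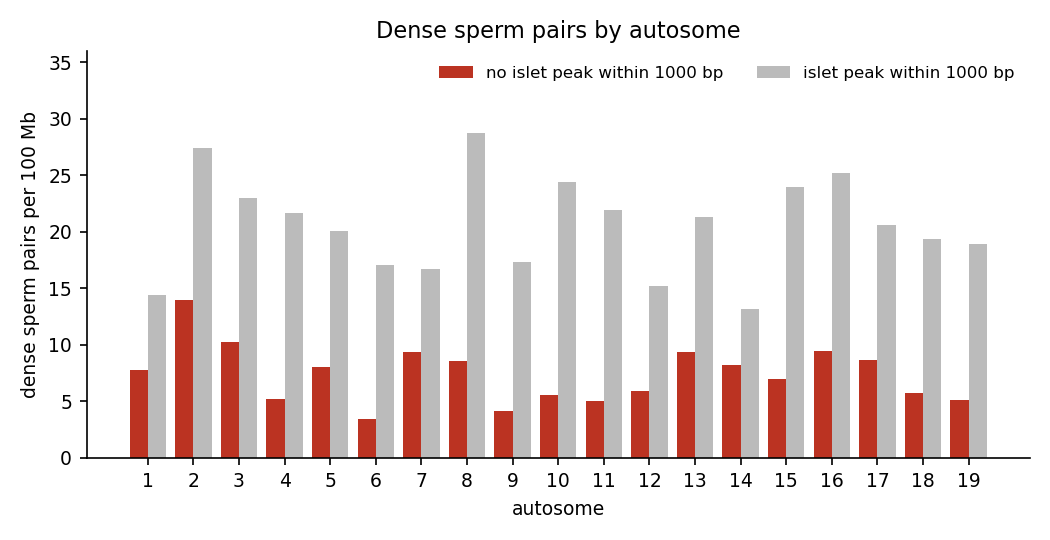
Dense sperm pairs per 100 Mb of each autosome (y axis), for members (red) and pairs with an islet peak within 1000 bp (grey); each bar is a count over the span of control sperm peaks. Members range from 3.41 on chromosome 6 to 13.99 on chromosome 2.

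Joining neighbours within 100 kb put 10 members (5.43%, interval 2.98% to 9.71%) into 5 clusters of 2, and 33 of 495 dense pairs present in islets (6.67%) into 15 clusters of up to 5. The median gap between neighbouring members on a chromosome was 7.40 Mb. The tightest cluster was on chromosome 13, where the broad regions from 120277259 and from 120280603 were 221 bp apart. On chromosome 17, the regions from 39793147 to 39793679 (201 and 217 tags) and from 39814242 to 39814728 (167 and 176 tags) were both wider in T2D sperm, at 979 bp and 1303 bp against 533 bp and 487 bp, with equal tags within counting error. Chromosome 2 had 2 clusters. In one, the regions from 112003558 to 112004663 (260 and 240 tags) and from 112027111 to 112027570 (106 and 105 tags) were alike in both libraries. In the other, the densest member was joined by the region from 107818517 to 107819032, which held 188 control and 149 T2D tags, a scaled ratio of 0.773 (0.619 to 0.964), and also lay just beyond the limit, at 1333 bp and 1345 bp from islet peaks. The last cluster, on chromosome 13, joined the regions from 68376335 to 68377005 (111 and 138 tags) and from 68465144.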

How the data were processed

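Genomic DNA of 4 groups, with 1 library each, was analysed by MeDIP-seq; libraries had 15 PCR cycles and fragments of about 250 bp with adapters, per the labels' protocols. Build mm9 and CASAVA 1.4 come from the submitters' processing notes. For sperm, MACS was run by the authors on reads of 49 bp with no input, per the file headers (p-value threshold 1.00e-05, regional background over 5000 bp, at most 2 tags per position). The islet lists have no such header; the sources used here do not say how they were called. The deposited values are the count of tags per peak (whole numbers, not scaled to depth), a score (the p-value as −log10, times 10), and the fold enrichment as a ratio to each library's own background, per the file headers.

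Peaks were paired by overlap of at least 1 bp, taking the longest, with numpy 2.4.6, pandas 2.3.3 and scipy 1.17.1. Matched peaks are control sperm peaks with any T2D sperm partner. Distance is the start of the later peak minus the end of the earlier, and distances to islet peaks were taken from the control sperm peak. Tag ratios were scaled to unique tags. Shares have Wilson intervals and tag ratios exact conditional binomial intervals, all at 95%; since PCR copies are not independent molecules, intervals and limits from a count of 0 (3 counts) cover counting error only. The rule and its steps were tested on simulated lists, with peaks of a single width and a shorter cluster link than the one used. Differences in width were thus not covered. No gene, CpG content or sequence was analysed here, since no genome of build mm9 was used. Named are the 10 densest members, the 5 highest and 5 lowest ratios, the 5 clusters, the 3 widest and narrowest, and 3 on each side of the control density limit and of the islet limit. The members and lists were chosen with earlier results of these data known. Alternatives are given in the closing section.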

Additional observations from a re-analysis of the deposited data

How the results depend on the processing

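No paired analysis was possible because each group had 1 library, and for the same reason no library could be left out. Median width (642.5 to 679 bp) and median summit distance (7 to 10 bp) stayed within the interval of their main value in each of 10 alternatives. With the top 0.5% of each list, 38.4% of dense pairs lacked an islet peak and members had a median of 224 tags per kb; with the top 2%, 18.4% and 185, and 5 members past 1.5-fold. Counting only overlapping islet peaks gave 33.1%. Members numbered 151 to 266 except with a distance of 5000 bp, which left 94, or 13.8% of dense pairs, with a median tag ratio of 1.03 and 1 past 1.5-fold. Ranking by score gave 32.0%, 178 tags per kb, 125 tags and 4 members past 1.5-fold, and by enrichment 35.3%, 146, 100 and 7. With any T2D partner the values were 14.3%, 186, 134.5 and 10. The median tag ratio was 1.03 unscaled and 1.03 scaled to tags in matched peaks. By tags per kb, 36 members were past 1.5-fold, not 2, with 11.4% of members higher and 8.15% lower in T2D. The shares higher and lower were 5.62% and 7.29% in all matched peaks and 2.83% and 2.63% in dense pairs present in islets. Linking over 10000 bp clustered 1.09% and over 1000000 bp 21.2% of members. Except for these ratios and links, whose construction sets the value, the cause was not tested. Density in islets is limited by unknown depth.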

Other observations

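Of the 37 dense sperm pairs on X, which the choice of members leaves out, 19 had no islet peak within 1000 bp (51.4%, 95% Wilson interval 35.9% to 66.6%), and on autosomes the share was 27.1%. The sex of the offspring is not given and sperm came from males, so sex and tissue cannot be told apart here, and no test was made. Median width of these 19 was 548 bp, and their median tag count was 119 in control and 139 in T2D sperm. Their scaled T2D to control ratio ran from 0.756 to 1.70 with a median of 1.07, and 1 was past 1.5-fold. The densest 3, picked after their values were seen, lay on X from 97100841 to 97101430 (455 and 454 tags), from 147914218 to 147914678 (142 and 179 tags) and from 90970743 to 90971268 (158 and 189 tags).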
